A study of Mus musculus with 2 samples.

Results

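The genes described here carry out the assembly, remodeling and uptake of plasma lipoproteins in the liver. They are Mttp, Tm6sf2, Sort1, Lcat, Lipc, Pltp, Scarb1, Lrp1, Apom and Apoh. They were chosen by symbol, 10 genes among the 43346 mouse gene rows of each deposited gene table, and each symbol matched exactly 1 row in both libraries. The samples were livers of C57BL/6J mice at 8 weeks of age, with no treatment or altered allele named in the labels, and RNA longer than 200 nucleotides was sequenced from total RNA. The 2 libraries, labelled biological replicates 1 and 2, form a single group, so no test between conditions was possible. The labels give each library its own biosample but the same donor identifier, give no sex and name no separate animals, so the spread between them may be partly or wholly technical.

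Hepatocytes load triglyceride and phospholipid onto a growing apolipoprotein in the endoplasmic reticulum and secrete the particle as very low density lipoprotein. In plasma, enzymes and transfer proteins esterify cholesterol, hydrolyse lipid and move phospholipid between particles. The liver then takes up remnants by endocytosis and selectively removes cholesteryl ester from high density lipoprotein. The genes below are ordered by these roles: assembly and secretion, remodeling in plasma, receptors, and proteins carried on particles.

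Endogenous genes took 83816487 expected counts (estimated fragments) in replicate 1 and 71068191 in replicate 2. Levels are given as protein-coding TPM, the deposited length-scaled abundance (TPM) rescaled to the same total over protein-coding genes alone. This unit was used because protein-coding genes held 12.2% of endogenous TPM in replicate 1 and 16.4% in replicate 2, a gap that would otherwise enter every comparison of levels. Hepatocyte markers were abundant in both libraries, and the 7 markers together held 94501 and 112258 protein-coding TPM, led by the albumin gene Alb. The libraries differed in traces of other tissues. All 7 pancreatic acinar markers were higher in replicate 1, where they summed to 966 protein-coding TPM against 254 in replicate 2. All 5 skeletal muscle markers were also higher in replicate 1, at sums of 38.6 and 1.47. All 7 adrenal cortex markers were higher in replicate 2, at sums of 7.16 and 97.5.

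All 10 genes had at least 981 counts in each library, and together they held 0.396% of protein-coding TPM in replicate 1 and 0.426% in replicate 2 (mean 0.411% ± 0.021, SD, n = 2). Apoh alone made up 66.6% ± 1.94 of that sum. The highest gene exceeded the lowest by 389-fold in replicate 1 and by 227-fold in replicate 2. By mean level the order was Apoh, Apom, Lcat, Lrp1, Lipc, Mttp, Scarb1, Tm6sf2, Pltp and Sort1. Of the 9 neighbouring pairs in this order, 6 had ranges over the libraries that did not overlap. The 3 pairs with overlapping ranges lay among Lcat, Lrp1, Lipc and Mttp, whose values interleaved between 142 and 297 protein-coding TPM. Lcat was above Lrp1 within each library, by 1.11-fold and 1.16-fold, whereas Lrp1 and Lipc, and Lipc and Mttp, changed order between the libraries. By level, Mttp and Lipc were the genes that were lower in replicate 2, and the other genes were higher there, Pltp and Apoh by little. For comparison, the 12 listed apolipoprotein genes, the structural proteins of the particles, held 6.0% of protein-coding TPM in both libraries.

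**Figure D1:**
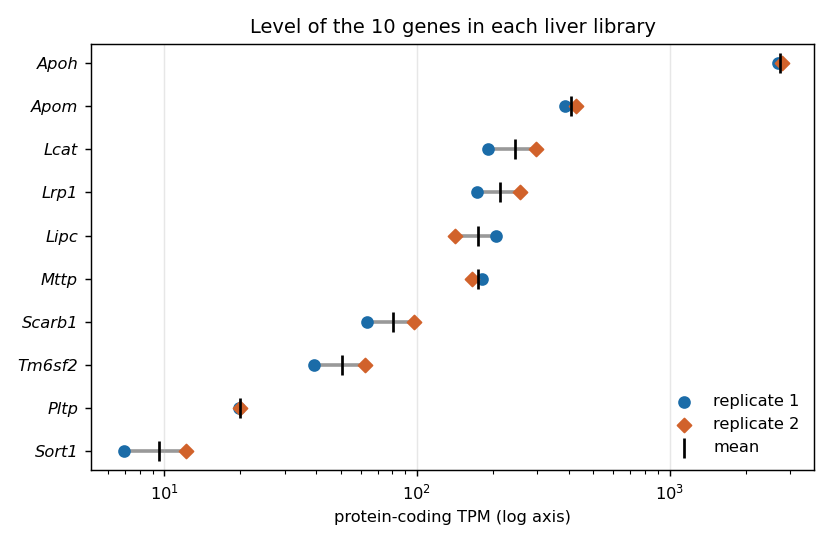
Level of each gene in protein-coding TPM on a log axis, with replicate 1 as circles, replicate 2 as diamonds, the mean as a vertical tick and a grey bar joining the libraries. Apoh stands alone near 2734, Lcat, Lrp1, Lipc and Mttp overlap between 142 and 297, and Sort1 is lowest at 9.57.

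Mttp encodes the large subunit of the microsomal triglyceride transfer protein, which loads lipid onto nascent particles. The gene (ENSMUSG00000028158.10) lies on the minus strand of chromosome 3 from 138089854 to 138144968 (mm10). It had 26087 expected counts in replicate 1 and 20625 in replicate 2, or 181 and 166 protein-coding TPM (mean 174 ± 10.2, SD, n = 2). It ranked 743 of 21474 protein-coding genes by mean level. The values of the libraries lay close together, with an SD of 5.9% of the mean. P4hb, the protein disulfide isomerase that forms the small subunit of the same complex and also serves other proteins of the endoplasmic reticulum, stood at 854 and 858 protein-coding TPM. P4hb thus exceeded Mttp by 4.72-fold in replicate 1 and 5.16-fold in replicate 2.

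Mttp transcripts have different starts and different first coding exons, which encode different amino-terminal ends, and the coding parts of these exons are shown because they tell the transcripts apart. The sequences are from the GENCODE M21 models on the same assembly, minus strand, with the start codon in capitals. The exon of Mttp-201 spans chr3:138131240-138131300 and that of Mttp-202 spans chr3:138134000-138134105.
Mttp-201: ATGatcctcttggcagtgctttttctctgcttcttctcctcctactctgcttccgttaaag
Mttp-202: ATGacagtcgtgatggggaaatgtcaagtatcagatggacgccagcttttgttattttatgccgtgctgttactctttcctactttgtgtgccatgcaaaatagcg

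Mttp-201 held 98.8% of Mttp TPM in replicate 1 and 98.1% in replicate 2. Mttp-202, whose annotated start lies 12011 bases upstream, held 1.22% and 1.87%, from 345.17 and 417.88 expected counts with posterior SDs of 33.8 and 35.8. The Mttp-202 model that was quantified is 4272 bases long, against 3072 in GENCODE M21, so its share rests on a model that was later shortened. Trmt10a, on the opposite strand with 297 and 180 counts, overlaps the upstream 1521 bases of the annotated span of Mttp.

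Tm6sf2 encodes a membrane protein of the endoplasmic reticulum and Golgi that is needed for full lipidation of secreted particles. The gene (ENSMUSG00000036151.11) lies on the plus strand of chromosome 8 from 70072924 to 70080066. It had 1661 counts in replicate 1 and 2504 in replicate 2, or 39.2 and 62.3 protein-coding TPM (mean 50.8 ± 16.4). Mttp exceeded it by 4.62-fold and 2.67-fold in the respective libraries. Its protein-coding models differ inside the coding region by 6 bases, or 2 codons, at the start of an exon at chr8:70077881-70077982. That exon is shown as Tm6sf2-202 has it, on the plus strand, with the bases that Tm6sf2-201 lacks in capitals.
Tm6sf2-202: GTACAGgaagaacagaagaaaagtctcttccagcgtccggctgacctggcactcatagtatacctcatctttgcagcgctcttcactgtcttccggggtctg

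Tm6sf2-202, with the longer exon, held 85.8% and 97.5% of Tm6sf2 TPM. Tm6sf2-201 was assigned 0 counts in both libraries, with posterior SDs of 11.7 and 9.69 counts, so a contribution of that order was not detectable at this depth. Retained-intron models, which contain intronic sequence and encode no annotated protein, took 14.2% in replicate 1 and 2.5% in replicate 2. These rest on few fragments: the largest, Tm6sf2-203, had 40.82 counts in replicate 1 and 0 in replicate 2.

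Sort1 encodes sortilin, a sorting receptor of the Golgi that binds apolipoproteins and directs cargo to lysosomes or secretion. The gene (ENSMUSG00000068747.10) lies on the plus strand of chromosome 3 from 108284082 to 108361511. It was the lowest of the 10, with 1468 and 2035 counts, or 6.92 and 12.2 protein-coding TPM (mean 9.57 ± 3.75). Its rank by mean was 6406 of 21474. Sort1-201, the longest of its models as quantified at 6796 bases, held 80.0% and 71.8% of its TPM. Sort1-203 held 20.0% and 18.5%, as a quantified model of 1629 bases that GENCODE M21 extends to 6836 bases. These shares came from 75.08 and 106.15 counts with posterior SDs of 11 and 13.8, raised by the short quantified length. The retained-intron model Sort1-202 had 0 counts in replicate 1 and 28 in replicate 2, which its short length turned into 9.64% of Sort1 TPM. The Sort1 counts, in which short models weigh less, differed by 1.46-fold between the libraries after scaling to a common library size.

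Lcat encodes lecithin-cholesterol acyltransferase, which the liver secretes and which esterifies cholesterol on high density lipoprotein. The gene (ENSMUSG00000035237.7) lies on the minus strand of chromosome 8 from 105939551 to 105943382. It had 8359 counts in replicate 1 and 11162 in replicate 2, or 192 and 297 protein-coding TPM (mean 245 ± 74.2). Lipc encodes hepatic lipase, which hydrolyses triglyceride and phospholipid of particles held at the sinusoidal surface. It (ENSMUSG00000032207.9) lies on the minus strand of chromosome 9 from 70798128 to 70952226. Lipc had 13506 and 8007 counts, or 206 and 142 protein-coding TPM (mean 174 ± 45.4). These plasma enzymes exchanged places between the libraries: the level of Lcat was 0.935 times that of Lipc in replicate 1 and 2.1 times in replicate 2. Each had 1 quantified transcript, so no isoform estimate enters their values. An antisense gene, Gm16156, spans Lcat but had 5 counts in replicate 1 and 1 in replicate 2.

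Pltp encodes the phospholipid transfer protein, which moves phospholipid from triglyceride-rich particles to high density lipoprotein. The gene (ENSMUSG00000017754.9) lies on the minus strand of chromosome 2 from 164839518 to 164857711. It had 1129 and 981 counts and stood at 19.8 and 20.0 protein-coding TPM (mean 19.9 ± 0.0838), the smallest spread of the 10 genes on this scale. In counts scaled to a common library size, Pltp differed by 1.08-fold between the libraries, more than Apom (1.02-fold) and Apoh (1.05-fold). Its level was below those of Lcat and Lipc in both libraries. The last 1515 bases of its span overlap Ctsa, a lysosomal protease gene on the opposite strand with 4968 and 5029 counts. The deposited signal tracks are listed by strand, but the sources used here do not give whether counting used strand. The posterior SD of the Pltp count was 0 in both libraries, so the estimate divided none of its reads between Pltp and other genes.

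Pltp-201 was the most abundant Pltp transcript, at 71.4% and 58.4% of its TPM, and Pltp-203, which skips 1 coding exon, was next at 19.5% and 28.5%. The skipped exon is shown because it is the internal difference between the models: 156 bases at chr2:164854266-164854421, minus strand, which removes 52 codons and keeps the reading frame.
Pltp skipped exon: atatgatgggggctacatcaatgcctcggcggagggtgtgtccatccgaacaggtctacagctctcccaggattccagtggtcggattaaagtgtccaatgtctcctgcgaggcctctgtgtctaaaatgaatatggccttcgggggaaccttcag

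Of the TPM of Pltp-201 and Pltp-203 together, the exon-skipping model held 21.5% in replicate 1 and 32.9% in replicate 2. The estimates came from 202.27 and 256.88 counts with posterior SDs of 53.8 and 41.4, so the gap between the libraries is of the size of the estimation error. The coding sequence runs to 493 codons with the exon and 441 without it.

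Scarb1 encodes scavenger receptor class B type I, which removes cholesteryl ester from high density lipoprotein without taking up the particle. The gene (ENSMUSG00000037936.11) lies on the minus strand of chromosome 5 from 125277087 to 125341094. It had 5267 counts in replicate 1 and 6778 in replicate 2, or 63.8 and 97.4 protein-coding TPM (mean 80.6 ± 23.8). Its adaptor Pdzk1, which holds the receptor at the hepatocyte surface, stood at 54.1 and 44.5, the opposite direction. Scarb1 is also abundant in adrenal cortex, where it supplies cholesterol for steroids. The adrenal cortex markers, 7 of 7, were higher in replicate 2, as were Tm6sf2, Sort1, Lrp1 and Lcat, whereas Lipc and Mttp were lower there. The steroid-synthesis gene Star went from 48 to 2021 counts. Cyp11a1 and Mc2r had 0 counts in replicate 1, and 379 and 12 in replicate 2. The contrast was smallest in counts for Mc2r, and Akr1b7 had 234 and 454 counts, under 2-fold apart at a log2 ratio of 0.93. The part of the markers' source in the Scarb1 value was not tested.

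The protein has alternative carboxy-terminal ends, known as SR-BI and SR-BII, set by whether 1 exon near the end of the coding region is included. The included exon is shown because its presence separates Scarb1-201 from Scarb1-202: 129 bases at chr5:125281105-125281233, minus strand, with the stop codon in capitals.
Scarb1-201 exon: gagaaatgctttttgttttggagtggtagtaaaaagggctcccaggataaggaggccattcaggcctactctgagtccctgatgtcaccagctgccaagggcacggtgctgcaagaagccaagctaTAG

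When the exon is skipped, translation continues into the next exon for 117 coding bases, and the predicted protein has 506 codons in place of 509. Scarb1-201 held 61.1% and 52.8% of Scarb1 TPM, and the skipping model Scarb1-202 held 25.9% and 27.4%. Of the pair, Scarb1-202 took 29.8% in replicate 1 and 34.2% in replicate 2 (mean 32.0% ± 3.09). The posterior SDs were 128 and 135 counts on 3459.03 and 3925.48 for Scarb1-201, and 125 and 140 on 1370.53 and 1904.01 for Scarb1-202. The minor form was therefore present in both libraries well beyond its estimation error. Retained-intron models summed to 9.54% and 16.2%, mostly Scarb1-209 with 267.75 and 705.04 counts.

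Lrp1 encodes the low density lipoprotein receptor-related protein 1, a large endocytic receptor that clears remnants together with proteases and other ligands. The gene (ENSMUSG00000040249.11) lies on the minus strand of chromosome 10 from 127538161 to 127621148. It had 76325 counts in replicate 1 and 103595 in replicate 2, or 173 and 255 protein-coding TPM (mean 214 ± 58.6). Because its main transcript is 14888 bases long, Lrp1 took 30.9% and 40.2% of all counts of the 10 genes but only 4.36% and 6.0% of their summed level. Its level was 2.71 times that of Scarb1 in replicate 1 and 2.62 times in replicate 2. These levels include noncoding models, whose shares moved in opposite directions. Protein-coding transcripts held 79.0% and 85.4% of Lrp1 TPM in replicates 1 and 2, and 87.0% and 80.4% of Scarb1 TPM. Lrpap1, the chaperone that keeps this receptor free of ligand in the secretory pathway, stood at 36.6 and 36.3 protein-coding TPM.

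Lrp1-201, with 89 exons and 4545 codons, held 77.4% and 83.1% of Lrp1 TPM. Most of the rest was assigned to Lrp1-208, a retained-intron model of 763 bases, at 14.6% and 10.7%. In counts, Lrp1-208 took 0.699% and 0.487% of the gene, since TPM divides by length. When only protein-coding transcripts were kept, in the gene and in the total used for scaling, the mean level of Lrp1 was 194. That total differs from the one behind protein-coding TPM, so 194 cannot be set directly against the mean of 214 above. On it Lcat, whose 1 quantified transcript is protein-coding, stood at 268, against 245 protein-coding TPM. The sum over retained-intron models was higher in Lrp1 than in 80.9% and 73.1% of the 815 well expressed genes that have such a model, and in Scarb1 than in 67.0% and 76.2%. The median over those genes was 4.59% and 4.72%.

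**Figure D2:**
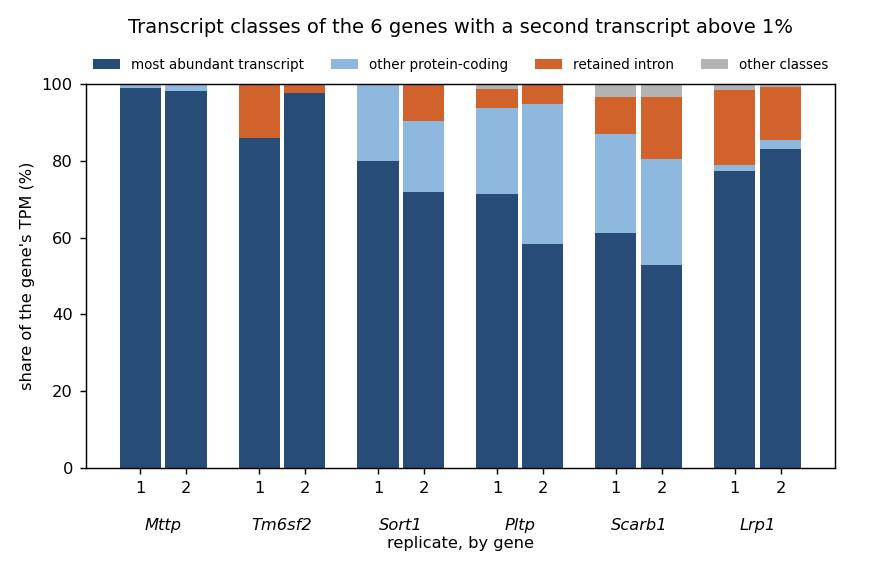
Share of gene TPM, in percent, of the most abundant transcript, other protein-coding transcripts, retained-intron models and other classes, in replicates 1 and 2 of 6 genes. Other protein-coding forms hold the largest shares in Scarb1 and Pltp, and the retained-intron share is highest in Lrp1 in replicate 1, at 19.3%.

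The most abundant transcript was the same in both libraries for all 10 genes and was annotated as protein-coding in each case. Of 1887 protein-coding genes at 50 protein-coding TPM or more in both libraries, 96% kept the same transcript, so the 10 of 10 lies near that background. Of the 10 genes, 7 meet that level, and Tm6sf2, Pltp and Sort1 lie below it in at least 1 library. Lcat, Lipc and Apom each had 1 quantified transcript and could not differ. At the gene level the posterior SD of the count was 0 for all 10, so the estimate divided no reads between them and other genes.

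Apom encodes a lipocalin that rides mainly on high density lipoprotein and carries sphingosine 1-phosphate. The gene (ENSMUSG00000024391.7) lies on the minus strand of chromosome 17 from 35128997 to 35132050. It had 11922 and 11413 counts, or 387 and 427 protein-coding TPM (mean 407 ± 28.5). Apoh encodes beta-2-glycoprotein I, an abundant plasma protein that binds anionic phospholipid and is found partly on lipoproteins. The gene (ENSMUSG00000000049.7) lies on the plus strand of chromosome 11 from 108343354 to 108414396. It had 101169 and 90306 counts, or 2691 and 2776 protein-coding TPM (mean 2734 ± 60.2), and ranked 46 of 21474 by mean. Apoh exceeded Apom by 6.95-fold and 6.5-fold. For both genes the SD was a small part of the mean, 7.0% for Apom and 2.2% for Apoh, and Apoh-201 held 99.9% or more of Apoh TPM in each library. Prkca, on the opposite strand with 1111 and 990 counts, overlaps the upstream 575 bases of Apoh.

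The distance between the libraries was then measured as the log2 ratio of replicate 2 over replicate 1, from counts scaled by TMM, a factor that sets the bulk of genes equal, with a pseudocount of 0.5 CPM (counts relative to the scaled library total). In bulk liver, fewer cells of a type and less RNA per cell cannot be told apart. All 10 genes passed the filter for this comparison, a mean of 5 protein-coding TPM and of 100 counts. None of the 10 lay over 2-fold apart, against 1.98% of the 8282 genes compared (164 genes), so 0 of 10 is near the background. Of the 164 genes, 58 were higher in replicate 2 and 106 in replicate 1, a split that became 177 and 73 with spike-in scaling, 263 and 61 with the deposited TPM ratio and 105 and 94 with protein-coding TPM. These are ratios between 2 libraries, with no replicate check and no p-value.

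Below 2-fold, 7 of the 10 genes lay outside the 25th to 75th percentile of the genes compared. Only 1, Tm6sf2, lay outside the central 95%. Tm6sf2 at 0.67, Sort1 at 0.55, Lrp1 at 0.53, Lcat at 0.50 and Scarb1 at 0.45 were all higher in replicate 2, each above 93.0% or more of the genes compared. Apom at 0.03, Apoh at -0.07 and Pltp at -0.11 lay near equal values. Mttp was lower at -0.25. Lipc stood at the other end at -0.66, with only 3.2% of genes compared below it. The exact 95% counting interval ran from -0.71 to -0.63 for Lipc and from 0.59 to 0.77 for Tm6sf2. The interval covers counting error only, not the spread between preparations, and was computed without the pseudocount that the ratios include. The median of the 10 was 0.24, against -0.03 over all genes compared, where the central 95% of genes ran from -0.74 to 0.66.

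**Figure D3:**
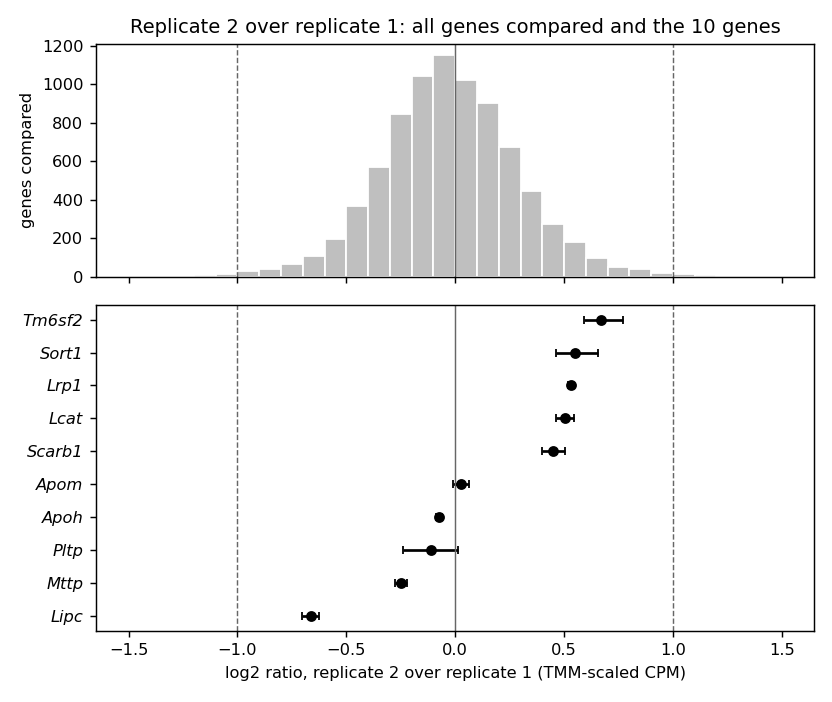
Log2 ratio of replicate 2 over replicate 1 under TMM: above, a histogram of the genes compared, and below, the 10 genes with exact 95% counting intervals. The points include the pseudocount and the intervals do not. Dashed lines mark 2-fold. Tm6sf2, Sort1, Lrp1, Lcat and Scarb1 lie between 0.45 and 0.67, and Lipc lies at -0.66.

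TMM and spike-in scaling differ from each other only by a constant factor per library, as do the deposited and protein-coding TPM ratios. Within each pair, positions relative to the bulk could therefore hardly change, apart from the effect of the pseudocount. The median of all genes compared was 0.28 when libraries were scaled by spike-ins, 0.43 by the deposited TPM ratio and 0.09 by protein-coding TPM, so values are given here relative to it. On that basis Tm6sf2, Sort1, Lcat, Lrp1 and Scarb1 were higher in replicate 2, and Lipc, Mttp and Pltp lower, under each of the scalings run. Lipc ranged from -0.54 to -0.63 and Lcat from 0.38 to 0.61. Centring on GC content, described below, is not a constant shift. From TMM to GC centring, Lrp1 went from 0.56 to 0.36, Scarb1 from 0.48 to 0.32 and Pltp from -0.08 to -0.28. Sort1, from 0.58 to 0.55, and Lipc, from -0.63 to -0.61, changed less. Apoh and Apom, close to 0, changed sign: Apoh was 0.04 under the deposited TPM ratio and Apom -0.05 after centring on GC content. Without taking off the median, Mttp, Pltp and Apoh had positive ratios under spike-in and deposited TPM scaling, and Pltp and Apoh also under protein-coding TPM.

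GC content moved with the ratio across genes, and 4 of the 5 genes with the highest ratios are GC-rich. The median ratio of genes compared ran from -0.24 in the lowest of 10 GC bins to 0.17 in the highest. The most abundant transcripts of Lrp1, Scarb1, Lcat and Tm6sf2 had 57.9%, 56.2%, 55.5% and 55.3% GC, against a median of 49.7% over the genes. Lipc had 48.8% and Mttp 45.9%. Pltp and Apom were also GC-rich, at 57.8% and 54.5%, but had ratios of -0.11 and 0.03. After each ratio was centred on the median of its GC bin, a step chosen after seeing the data, Tm6sf2 stood at 0.59, Sort1 at 0.55, Lcat at 0.38, Lrp1 at 0.36, Scarb1 at 0.32 and Lipc at -0.61. Pltp moved from -0.11 to -0.28, Apom from 0.03 to -0.05, and the median of the 10 from 0.24 to 0.15.

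**Figure D4:**
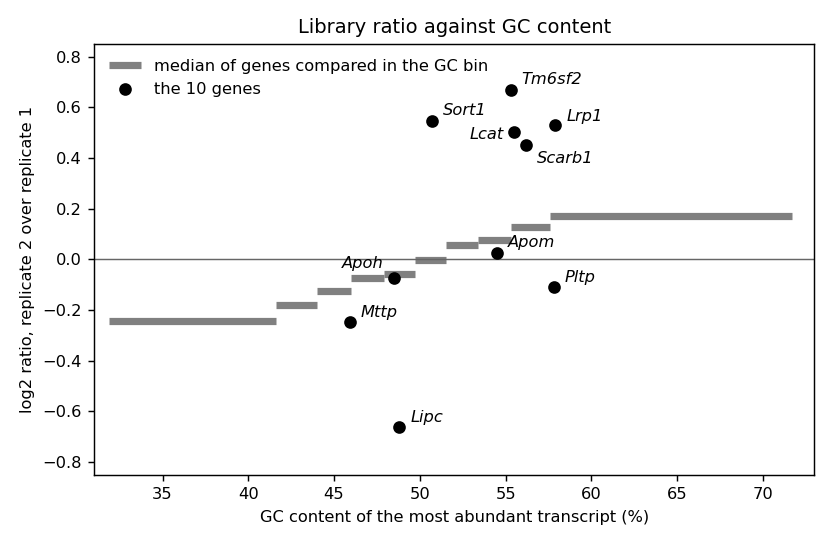
Log2 ratio of replicate 2 over replicate 1 against the GC content, in percent, of the most abundant transcript of each gene. Grey bars are medians of the genes compared in 10 GC bins, which run from -0.24 to 0.17, and points are the 10 genes.

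The other genes of the pathway were examined in lists by role. Of all genes compared, 45.5% had a ratio above 0 and 1.98% lay over 2-fold apart. Of the 12 apolipoprotein genes, 11 were measured, 3 above and 8 below equal values with a median log2 ratio of -0.10, and none lay over 2-fold apart. Apoe, a ligand for remnant receptors, led the list at 22311 and 21424 protein-coding TPM, a ratio of -0.13. Of the 13 genes of particle assembly and export, 7 lay above and 6 below, with a median of 0.01. The lumenal hydrolase Ces1d, which mobilises stored triglyceride, led at 2192 and 1503, a ratio of -0.50. Aadac, another lipid hydrolase of the endoplasmic reticulum, followed at 1331 and 1001, and P4hb had a ratio of -0.11.

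Among 11 measured lipases, remodeling enzymes and lipid exporters, 5 were above and 6 below, with a median of -0.03. The paraoxonase Pon1, an esterase of high density lipoprotein, led at 2108 and 1671 protein-coding TPM, a ratio of -0.48. Lpl, which encodes lipoprotein lipase and is made mainly outside the adult liver, was the only gene of the pathway lists over 2-fold apart. Over all these lists that is near the background of 1.98% of all genes compared. Lpl had 983 and 2616 counts, 8.64 and 27.1 protein-coding TPM and a log2 ratio of 1.46. Lpl and Scarb1 were both higher in replicate 2, as were the adrenal cortex markers and also Tm6sf2, Sort1, Lrp1 and Lcat. The skeletal muscle and pancreatic acinar markers were higher in replicate 1. Whether the source of any of these markers adds to Lpl or Scarb1 was not tested.

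Of 17 receptors and adaptors, 14 were measured, 8 above and 6 below, with a median of 0.08. Sdc1, a heparan sulfate proteoglycan that binds remnants, was the highest at 147 and 290 protein-coding TPM, a ratio of 0.82, and Pdzk1 had -0.41. Of the 13 transcription factors of lipoprotein genes, 9 were above and 4 below, with a median of 0.13. By protein-coding TPM, 12 of these 13 were higher in replicate 2, as were 13 of the 17 receptors and adaptors. On that scale, 9 of 13 assembly and export genes, 6 of 12 lipases, remodeling enzymes and exporters and 5 of 12 apolipoproteins were higher there. The median of all genes compared was 0.09 on that scale. Creb3l3, Ppara and Hnf4a, which drive lipid genes in hepatocytes, stood at 170 and 188, 165 and 190, and 147 and 195 protein-coding TPM. Their ratios were -0.04, 0.00 and 0.29. No list other than the one with Lpl held a gene over 2-fold apart.

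**Figure D5:**
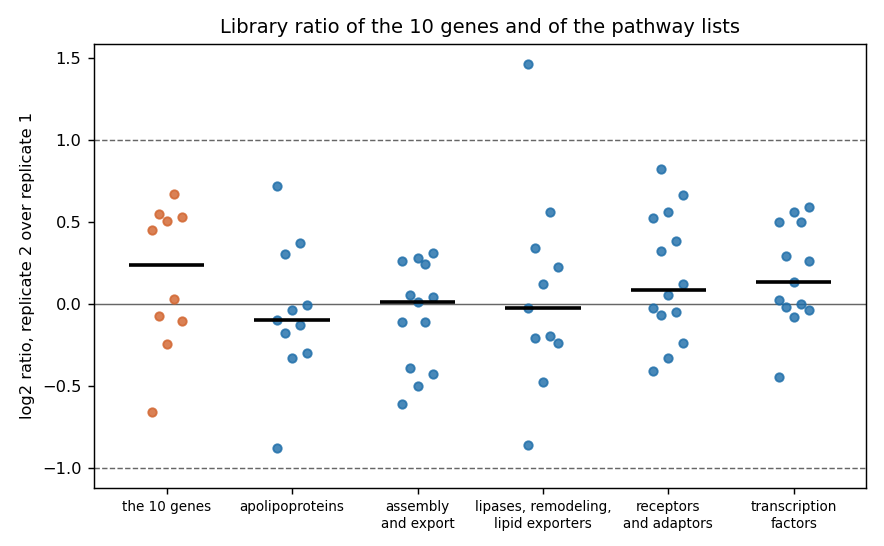
Log2 ratio of replicate 2 over replicate 1 for the 10 genes and for the measured genes of each pathway list. Horizontal bars are medians, at 0.24 for the 10 genes and between -0.10 and 0.13 for the lists, and dashed lines mark 2-fold; Lpl is the point at 1.46.

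Markers of the other cell types of liver tissue were summed in the same way. The 9 Kupffer cell markers, macrophages that also express Lrp1 and Pltp, summed to 601 and 516 protein-coding TPM, with 6 of 9 higher in replicate 1 on that scale and 7 of 9 by TMM-scaled counts. The 7 stellate cell and fibroblast markers summed to 262 and 289, with 6 of 7 higher in replicate 2 and 5 of 7 by TMM-scaled counts. The 7 sinusoidal endothelial markers summed to 314 and 305, with 5 of 7 higher in replicate 2 on that scale and 3 of 7 by TMM-scaled counts. Of these, Lyve1 lay over 2-fold apart at 468 and 1062 counts (log2 ratio 1.20). None of these lists had a marker at 0 counts. The 5 erythroid markers summed to 1080 and 1602, all 5 higher in replicate 2, and the 5 cholangiocyte markers to 41.4 and 31.5. The part of these cells in the values of Lrp1 and Pltp was not tested.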

How the data were processed

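The deposited quantifications of 2 liver total RNA libraries were used. The authors quantified the libraries separately, on mm10 and GENCODE M4 per the deposited notes, with an aligner and quantifier not given in the sources used here. Deposited values were expected counts (estimated fragments, not normalized), TPM (scaled to length and to all features, spike-ins included) and the percent of gene TPM per transcript, per the file headers. The posterior SD of each count was also used.

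Of 43346 mouse gene rows, 42462 matched GENCODE M21 by identifier, which gave symbols, classes and coordinates, and 884 did not. TPM was rescaled over 21474 protein-coding genes, 13 of them mitochondrially encoded. Expected counts were rounded for edgeR 4.0.16 (TMM) and DESeq2 1.42.0 (size factors) in R 4.3.3; other values used Python 3.11.15. The pseudocount of 0.5 CPM equals 39.8 counts in replicate 1 and 37.4 in replicate 2, so ratios of low genes are understated. Counting intervals are exact (Clopper-Pearson) and leave out the pseudocount. GC content was known for 99.5% of genes compared. The ratio step was tested on simulated data, and the transcript step was not.

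The genes, lists and rules were chosen with earlier results of these data known. The rule for naming takes all 10 genes and, of each list, the 3 highest and any over 2-fold apart, of which examples are given, and of each cell type list the highest. Lrpap1, Star, Cyp11a1, Mc2r, Akr1b7 and Lyve1 were named outside it, after their values were seen. Alternatives were other scalings, pseudocounts, denominators, filters and leaving out each library.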

Additional observations from a re-analysis of the deposited data

How the results depend on the processing

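With 2 libraries in 1 group, no setting could be tested against replicate error, and the values of a left-out library are those of the other. No paired analysis was possible because both libraries belong to the same group. The share of protein-coding TPM held by the 10 genes ran from 0.396% to 0.426% with a library left out, and was 0.451% by expected counts and 0.451% without mitochondrially encoded genes in the total. The median log2 ratio of the 10 was 0.556 with spike-in scaling, 0.727 by the deposited TPM ratio and 0.353 by protein-coding TPM, and it stayed within 0.1 of the reported 0.238 with DESeq2 size factors and GC centring. By the deposited TPM ratio 2 of the 10, Tm6sf2 and Lcat, lay over 2-fold apart, against 3.91% of the 8282 genes compared, and 0 did under each other scaling run. Under that ratio all genes shifted as well, with a median of 0.430. Without a filter on level, 2.65% of 13596 genes lay over 2-fold apart. Neighbouring pairs with separate ranges numbered 6 with counts per kilobase, 5 with protein-coding transcripts alone and 4 with endogenous TPM, and Mttp then stood above Lipc. Leaving out mitochondrially encoded genes, GC centring, and ordering by endogenous TPM or by protein-coding transcripts were chosen after seeing the data. At 5 protein-coding TPM, 92.9% of genes kept their most abundant transcript. Depth limits the transcript shares resting on under 100 counts, such as those of Tm6sf2-203, Sort1-202 and, in replicate 1, Sort1-203.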
